A study of Homo sapiens with 6 samples.

Results

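Chemoattractant receptors are membrane proteins through which blood cells sense chemokines, complement fragments, formylated peptides and lipids and move towards them. The set described here holds 9 genes, CXCR4, CCRL2, CCR1, CCR2, CXCR2, ACKR3, CMKLR1, C5AR1 and FPR1, out of 60612 gene IDs in the count tables. They were chosen by name, as receptors for chemokines, chemerin, complement C5a or formyl peptides, with earlier results of these data known.

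RNA was sequenced from KO52, an acute myeloid leukemia cell line with mutations on both alleles of CEBPA. All 3 groups carried a doxycycline-inducible pCW57.1 lentiviral vector, and per the study's methods transduced cells were treated with doxycycline and sorted for GFP. In the dnCEBP group it expressed a peptide that acts as a dominant negative on C/EBP, in the dnFOS group one that does so on FOS, and in the empty vector control (EV) GFP without a peptide. C/EBP and AP-1 transcription factors bind DNA as dimers, and a dimer that includes such a peptide does not bind. Set against EV, each peptide group shows which receptor genes differed in cells with that peptide, and set against each other they show how far these differences were unlike. Binding of C/EBP or AP-1 was not measured in these libraries. Each group held 2 libraries of 1 cell line, and nothing in the sources used here says that they came from separate cultures. The spread between these libraries, on which p-values rest, may therefore be technical. For each gene that spread was estimated partly from all genes tested. The length of induction before RNA was taken, and the level of each peptide, are not described here.

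Most of these receptors couple to inhibitory G proteins, whose subunits activate phospholipase C, phosphoinositide 3-kinase gamma and the small GTPases that move the cytoskeleton. G protein-coupled receptor kinases and arrestins then switch the receptor off. A second class, to which CCRL2 and ACKR3 belong, binds its ligand without G protein signalling and presents or removes it. In bone marrow, CXCR4 holds stem cells and leukemic blasts in the niche through its ligand CXCL12, while CXCR2 and the formyl peptide and C5a receptors are best known on neutrophils and CCR1 and CCR2 on monocytes.

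Levels are given in CPM, the counts scaled to a common library size with factors from the trimmed mean of M values (TMM). Total counts per library ran from 9862994 to 27663179, and both dnFOS libraries were shallower than the other 4. A count of 3, taken as the floor, was worth 0.111 to 0.290 CPM. Of 9 marker genes of a myeloid blast, 8 were expressed, while ELANE had 0 to 9 counts, and the 9 summed to 1080 to 1160 CPM in EV, 980 to 993 CPM in dnCEBP and 873 to 921 CPM in dnFOS. They did not move together, since MPO went from 216 CPM in EV to 58.1 in dnCEBP and PTPRC from 399 to 490 CPM. The 4 monocyte and macrophage markers summed to 2.01 to 2.70 CPM in EV, 0.868 to 1.29 CPM in dnCEBP and 0.976 to 1.55 CPM in dnFOS, and 2 of the 4 (FCGR3A and MARCO) did not pass the floor in any library. The T cell list summed to 116 to 124, 146 to 149 and 91.9 to 105 CPM in EV, dnCEBP and dnFOS, nearly all of it CD3D. CD3E had 0 to 4 counts in every library. The epithelial and fibroblast list summed to 72.2 to 87.5, 78.4 to 78.8 and 67.3 to 71.6 CPM, nearly all of it EPCAM, KRT8 and KRT18. The B cell and erythroid lists stayed at or below 2.99 CPM. The part of these shifts in the results was not tested, and in bulk RNA fewer cells of a type cannot be told apart from less RNA per cell.

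**Figure D1:**
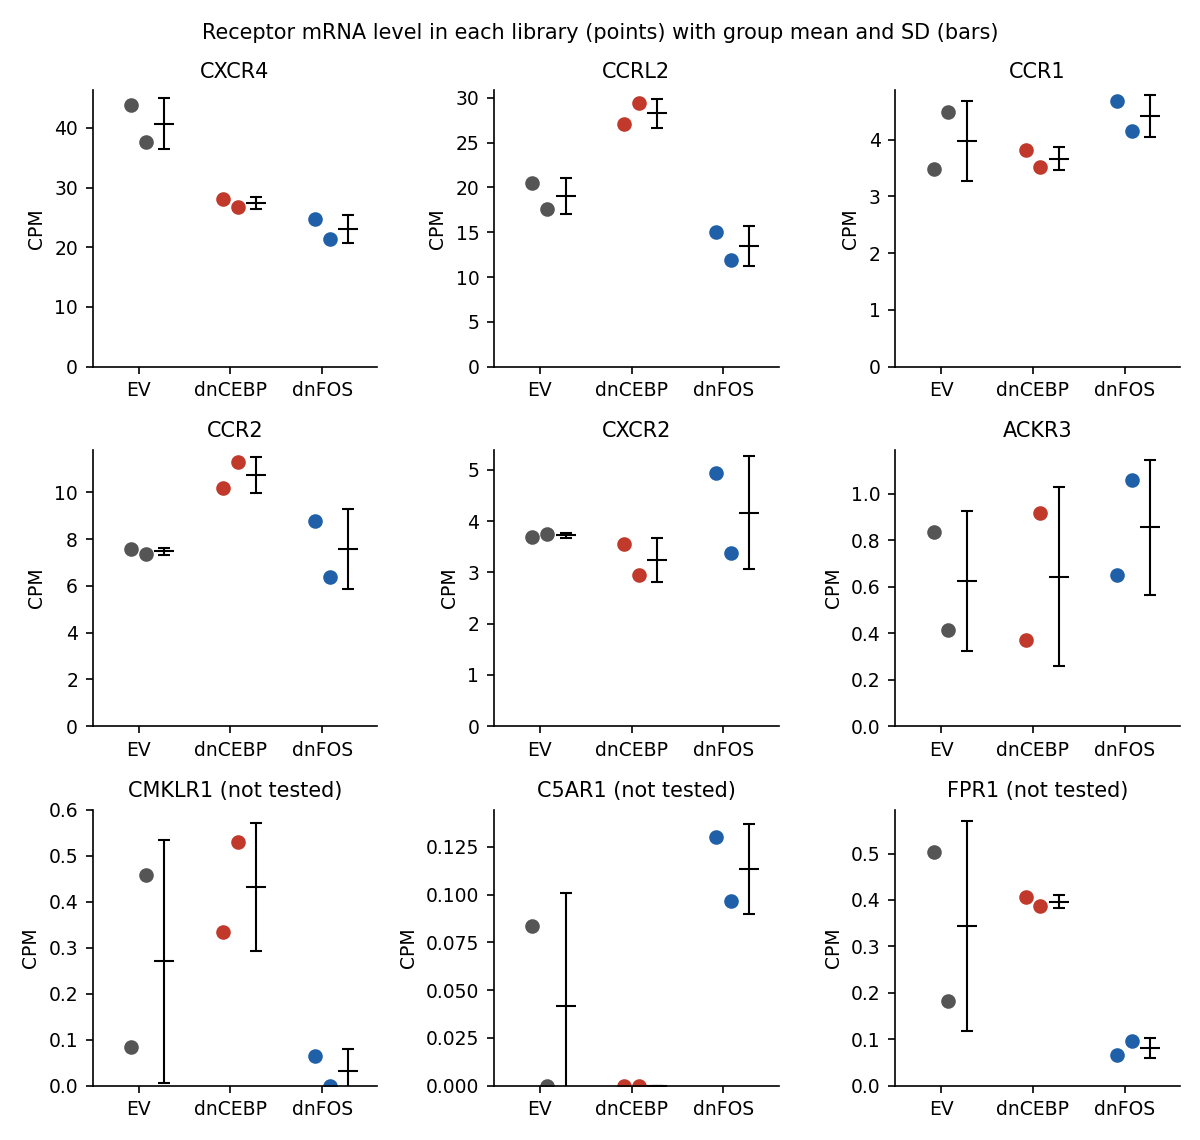
The level of each of the 9 receptors in CPM (y axis, from 0, with its own scale in each panel) in the 2 libraries of EV, dnCEBP and dnFOS (points), with the group mean and SD (bars, cut at 0). CXCR4 was highest in both EV libraries, CCRL2 was highest in both dnCEBP and lowest in both dnFOS libraries, and CMKLR1, C5AR1 and FPR1 did not pass the filter on low counts.

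Receptor genes differ in length, so they were ranked by CPM per kilobase of annotated exon. In EV, CXCR4 stood first of 38 chemoattractant receptor genes looked at, at 18.3 ± 1.93 CPM per kb (SD, n = 2), beside the sphingosine phosphate receptor S1PR4, whose range of 17.3 to 19.1 CPM per kb overlapped that of CXCR4, 17.0 to 19.7. CCRL2 was at rank 5 in that order, at 6.22 ± 0.677 CPM per kb, and its range overlapped those of GPR183 and PTGDR2. CCR2 followed at 2.0 ± 0.0420, CCR1 at 1.46 ± 0.260 and CXCR2 at 1.15 ± 0.0137 CPM per kb. The range of CCR2 lay above that of CCR1, and the range of CCR1 lay above that of CXCR2. ACKR3 had 0.277 ± 0.134, FPR1 0.132 ± 0.0872, CMKLR1 0.0476 ± 0.0464 and C5AR1 0.0142 ± 0.0201 CPM per kb in EV. These last 4 genes each overlapped their next lower neighbour among the 38. In dnCEBP, CCRL2 stood at 9.22 ± 0.525 CPM per kb, behind only S1PR4 and CXCR4 of the 38, and its range lay above that of C3AR1, the receptor next below it. In dnFOS it stood at 4.38 ± 0.712 CPM per kb and overlapped GPR183.

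Of the 9 receptors, 6 passed the filter on low counts and were tested together with all 15395 genes that passed. Differences were tested with edgeR's quasi-likelihood test, with Benjamini-Hochberg adjustment over all of those genes, and a gene was called where the adjusted p was under 0.05. Of the 6 receptors, 2 were called in dnCEBP against EV, CXCR4 lower and CCRL2 higher, where 1.07% of all genes tested were called. In dnFOS against EV, 2 of the 6 were called, CXCR4 and CCRL2, both lower, where 15.0% of all genes were called, 7.76% lower and 7.24% higher. In dnFOS against dnCEBP, 1 of the 6 was called, CCRL2, lower in dnFOS, where 14.7% of all genes were called and 7.84% were called lower. The median log2 fold change of the 6 receptors was -0.06, 0.10 and 0.02 in these comparisons, and that of all genes tested was -0.00, 0.00 and 0.02. The comparisons with EV share the same 2 EV libraries.

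CXCR4, the receptor for CXCL12, lies on the minus strand of chromosome 2 (GRCh38, chr2:136114349-136118165). It had 43.8 and 37.7 CPM in the EV libraries, 28.1 and 26.7 CPM in the dnCEBP libraries, and 24.7 and 21.4 CPM in the dnFOS libraries. Both peptide groups lay below both EV libraries, and the dnFOS libraries lay below the dnCEBP libraries. In dnCEBP it fell to 0.672 of its EV level, or -0.57 ± 0.12 as a log2 value (SE; edgeR adjusted p = 0.00918). In dnFOS it fell to 0.568 of EV, or -0.82 ± 0.12 as a log2 value (edgeR adjusted p = 4.27e-05). The difference between dnFOS and dnCEBP did not pass the test, at -0.24 ± 0.13 on the log2 scale with a 95% interval from -0.50 to 0.01 (edgeR adjusted p = 0.213). The fall in dnFOS was called without any 1 of the 6 libraries. The fall in dnCEBP was not called without EV replicate 1, when it was -0.46 (edgeR adjusted p = 0.227), nor without dnCEBP replicate 2, when it was -0.54 (0.181).

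CCRL2, a receptor that binds chemerin and holds it at the cell surface without signalling, lies on the plus strand of chromosome 3 (GRCh38, chr3:46407163-46412997). It had 20.5 and 17.6 CPM with the empty vector, 27.1 and 29.4 with dnCEBP and 15.0 and 11.9 with dnFOS. The 3 groups did not overlap, with dnCEBP highest and dnFOS lowest. Its log2 fold change was 0.57 ± 0.14 in dnCEBP (edgeR adjusted p = 0.0285) and -0.49 ± 0.15 in dnFOS (edgeR adjusted p = 0.0239), that is, 1.48-fold and 0.712-fold of EV. Between the peptides the level in dnFOS was 0.481 of that in dnCEBP, a log2 difference of -1.06 ± 0.15 (edgeR adjusted p = 6.01e-06). That difference was called under each of 9 other ways of fitting and without each of the 6 libraries, from -0.91 to -1.25. The differences from EV were less firm. The rise in dnCEBP was not called by DESeq2 (adjusted p = 0.0769), on library totals alone (edgeR adjusted p = 0.0619), without EV replicate 2 (0.45, edgeR adjusted p = 0.303) or without dnCEBP replicate 2 (0.51, edgeR adjusted p = 0.371). The fall in dnFOS was not called by DESeq2 (adjusted p = 0.0503), on library totals alone (edgeR adjusted p = 0.0762), without EV replicate 1 (-0.37, edgeR adjusted p = 0.241) or without dnFOS replicate 2 (-0.35, edgeR adjusted p = 0.253).

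**Figure D2:**
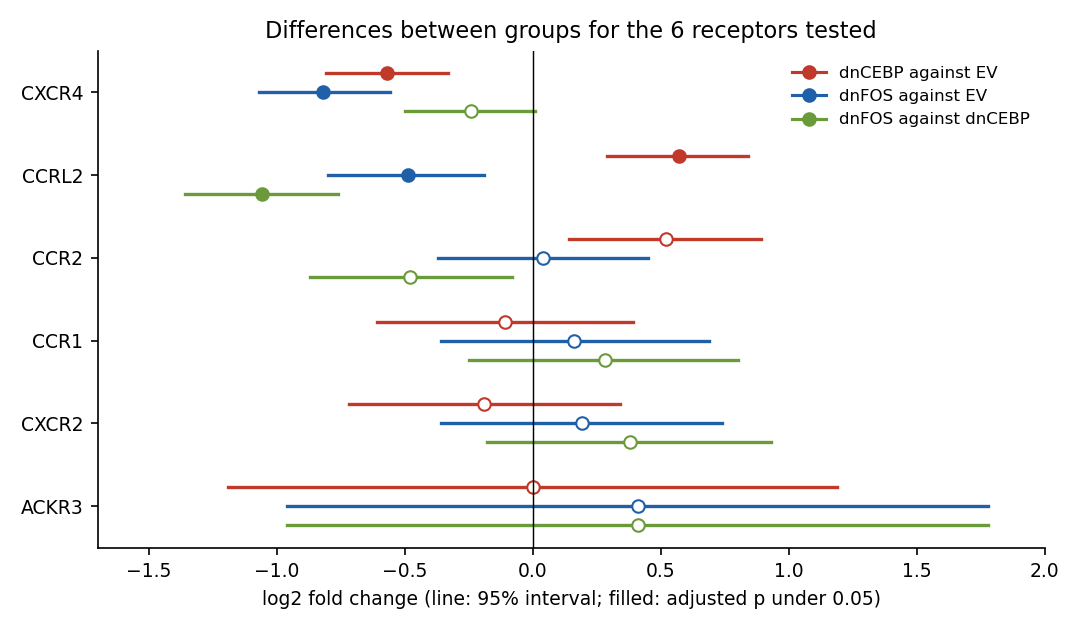
Log2 fold change (x axis) of the 6 receptors tested in dnCEBP against EV (red), dnFOS against EV (blue) and dnFOS against dnCEBP (green), with 95% intervals as lines and filled points at an edgeR adjusted p under 0.05. Of the 18 points, 5 are filled: 2 for CXCR4, both below 0, and 3 for CCRL2, of which the one in dnCEBP against EV is above 0.

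**Figure D3:**
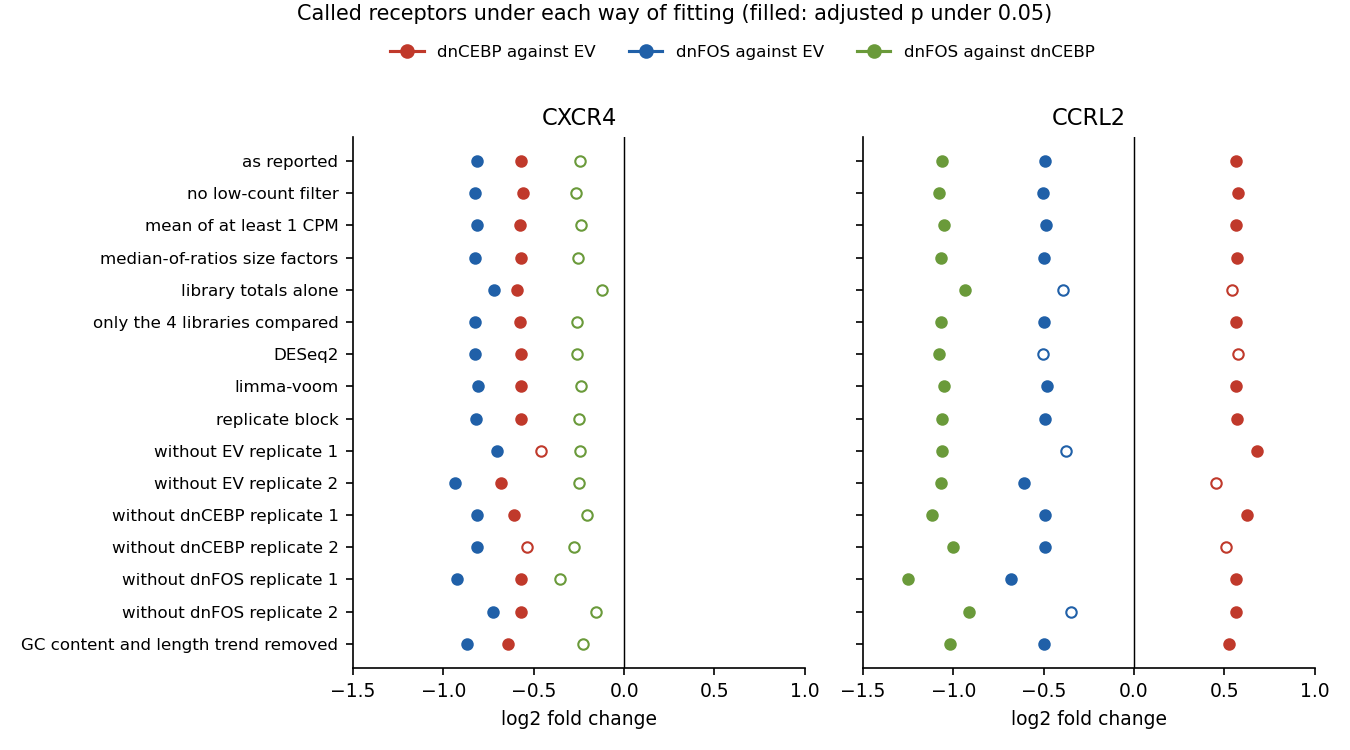
Log2 fold change (x axis) of CXCR4 and CCRL2 in the 3 comparisons as reported and under 15 other settings (y axis), with filled points at an adjusted p under 0.05. Every point of a comparison lies on the same side of 0, and the filled points are unbroken for CXCR4 in dnFOS against EV and for CCRL2 in dnFOS against dnCEBP.

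CCR2, the receptor for CCL2 that draws monocytes out of the marrow, had 7.59 and 7.36 CPM with the empty vector, 10.2 and 11.3 with dnCEBP and 8.78 and 6.37 with dnFOS. Both dnCEBP libraries lay above the other 4, and the dnFOS libraries lay on either side of EV. Its log2 fold change in dnCEBP was 0.52 ± 0.18 with a 95% interval from 0.14 to 0.89, which did not pass the test once adjusted over all genes (edgeR adjusted p = 0.209). In dnFOS against EV it was 0.04 ± 0.20, and in dnFOS against dnCEBP -0.48 ± 0.19 (edgeR adjusted p = 0.922 and 0.0977). The last of these was called without dnFOS replicate 1, at -0.75 (edgeR adjusted p = 0.0457).

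CCR1, a receptor for CCL3, CCL5 and CCL23, had 3.48 and 4.48 CPM with the empty vector, 3.81 and 3.52 with dnCEBP and 4.68 and 4.15 with dnFOS. CXCR2, the neutrophil receptor for CXCL8 and its relatives, had 3.69 and 3.75 CPM with the empty vector, 3.55 and 2.94 with dnCEBP and 4.94 and 3.38 with dnFOS. The EV and dnFOS libraries overlapped for both genes. Both dnCEBP libraries lay below both EV libraries for CXCR2 and below both dnFOS libraries for CCR1. No comparison of either was called. The 95% intervals in dnCEBP against EV ran from -0.61 to 0.39 for CCR1 and from -0.72 to 0.34 for CXCR2 on the log2 scale, and in dnFOS against EV from -0.36 to 0.69 and from -0.36 to 0.74. In dnFOS against dnCEBP they ran from -0.25 to 0.8 and from -0.18 to 0.93. Changes within these limits were not excluded by 2 libraries per group.

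ACKR3, the scavenger that removes CXCL12 and adrenomedullin, had 9 to 20 counts per library. It had 0.838 and 0.412 CPM with the empty vector, 0.370 and 0.916 with dnCEBP and 0.651 and 1.06 with dnFOS, and all groups overlapped. Its interval in dnFOS against EV, from -0.96 to 1.78 on the log2 scale, covered a fall by nearly as much as 2-fold and a larger rise.

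The other 3 receptors did not pass the filter, so they were not tested in the edgeR fit reported here. FPR1, the receptor for bacterial formyl peptides, had 12 and 4 counts with the empty vector, 11 and 8 with dnCEBP and 1 and 1 with dnFOS. Its summed rate in EV was 4.49 times that in dnFOS, with an exact 95% counting interval from 1.06 to 40.3, and in dnCEBP 5.10 times that in dnFOS, from 1.23 to 45.2. CMKLR1, the signalling receptor for chemerin, had 2 and 10 counts with the empty vector, 9 and 11 with dnCEBP and 1 and 0 with dnFOS, with EV replicate 1 nearer to dnFOS than to EV replicate 2. Its summed rate in dnCEBP was 10.7 times that in dnFOS, with an interval from 1.72 to 445. In EV it was 6.74 times that in dnFOS, from 0.997 to 288, and in dnCEBP 1.59 times that in EV, from 0.743 to 3.58, and both intervals include equal rates. These intervals cover counting error only, not the spread between libraries. C5AR1, the receptor for complement C5a, had 0 to 2 counts in every library, under the floor.

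The promoter sequences of the called receptors are shown because the peptides act on factors that bind such stretches. The tables used here hold windows from 250 bases before to 50 bases after a RefSeq gene start (RefSeq, build GRCh38.p14) for 8 of the 9 receptors, 11 windows in all, ACKR3 having none. The bases before every annotated start of CXCR4 (chr2:136118166-136118399, minus strand, 234 bases, 68.4% G or C) and of CCRL2 (chr3:46407009-46407162, plus strand, 154 bases, 52.6% G or C) read as follows, 5′ to 3′, with capitals on every match to the motifs listed after them.
CXCR4: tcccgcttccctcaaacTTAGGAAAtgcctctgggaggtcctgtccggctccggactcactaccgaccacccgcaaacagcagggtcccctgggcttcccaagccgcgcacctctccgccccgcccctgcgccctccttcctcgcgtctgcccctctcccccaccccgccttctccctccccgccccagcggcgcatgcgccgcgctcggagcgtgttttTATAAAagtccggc
CCRL2: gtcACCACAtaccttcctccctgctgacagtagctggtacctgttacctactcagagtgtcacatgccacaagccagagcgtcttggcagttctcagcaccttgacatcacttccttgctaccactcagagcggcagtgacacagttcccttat

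In all, 10 motifs were searched, all on both strands except the TATA box, and each is given with the share of all 35116 windows that hold it. They were AP-1 (TGANTCA, 7.71%), the cyclic AMP response element (TGACGTCA, 1.85%), C/EBP in a strict form (TTGCNNAA, 10.5%) and a relaxed form (TTNNGNAA, 36.8%), a C/EBP and AP-1 composite (TGTTGCAA, 0.669%), a C/EBP and ATF composite (TGATGCAA, 0.866%), RUNX (TGTGGT, 13.1%), ETS in a long form (GAGGAAGT, 2.59%) and a short form (CCGGAA, 17.2%), and the TATA box (TATAAA, 7.33%). Every strict C/EBP match is also a relaxed one, since both strands were read. The capitals in CXCR4 are a relaxed C/EBP match and the TATA box, which began 30 bases before the RefSeq start of that window, a start that lies inside the gene as GENCODE annotates it, and those in CCRL2 are a RUNX match on the other strand. None of the 3 CXCR4 windows and neither of the 2 CCRL2 windows held AP-1. A later CCRL2 start had a strict C/EBP match beginning 43 bases before it, shown in capitals (chr3:46407561-46407590, plus strand).
CCRL2, later start: catggtttcacTTTTGCAAacatttattta

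CCR2 was one of 2 receptors with an AP-1 match, the other being FPR1, and one of 2 with a strict C/EBP match, the other being CCRL2. In CCR2 both stood 9 bases apart, in capitals below, AP-1 first (chr3:46353896-46353925, plus strand). That stretch lies inside the gene as GENCODE annotates it (chr3:46353734-46360928).
CCR2: gccTGACTCAcactcaaggTTGCATAAgca
RUNX was matched in 5 receptors (CCRL2, CCR1, CXCR2, C5AR1 and FPR1), the relaxed C/EBP form in 5 (CXCR4, CCRL2, CCR1, CCR2 and FPR1) and the short ETS form in CXCR2. The cyclic AMP response element, both composites and the long ETS form were matched in none of the 11 windows, and CMKLR1 held no motif of the 10. A match is a description of the letters and not a bound site, and no match says only that the letters are not in that window.

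CCR1, CCR2 and CCRL2 lie within 211 kb of each other on chromosome 3, in the main cluster of CC chemokine receptor genes, and this neighbourhood was examined after the values of its genes were seen. Within 300 kb on either side, 9 of 26 annotated genes described here were tested, of which 1 was called in dnCEBP against EV, 2 in dnFOS against EV and 2 in dnFOS against dnCEBP, where 1.07%, 15.0% and 14.7% of all genes were called. CCRL2 was called in each. CXCR1 and CXCR2 are similar in sequence, so reads that fit both may have been split or dropped by the counting.

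Whether the counting used strand is not given in the sources used here, but no annotated exon of another gene overlapped an exon of any of the 9 receptors. On the far side of CCRL2, LTF, the granule protein lactoferrin, was called lower in dnFOS against EV (-2.21 ± 0.66) and against dnCEBP (-1.98 ± 0.67; edgeR adjusted p = 0.0214 and 0.0430), from 3 and 4 counts in the dnFOS libraries. Neither was called by DESeq2, which gave no adjusted p (-2.23 and -2.0). Neither was called by limma-voom (adjusted p = 0.0663 and 0.0937), nor the second on library totals alone (edgeR adjusted p = 0.0549). It was not called in dnFOS against EV without EV replicate 2 (-1.73), dnFOS replicate 1 (-1.74) or dnFOS replicate 2 (-2.70), and not in dnFOS against dnCEBP without any one of the 2 dnCEBP or 2 dnFOS libraries.

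**Figure D4:**
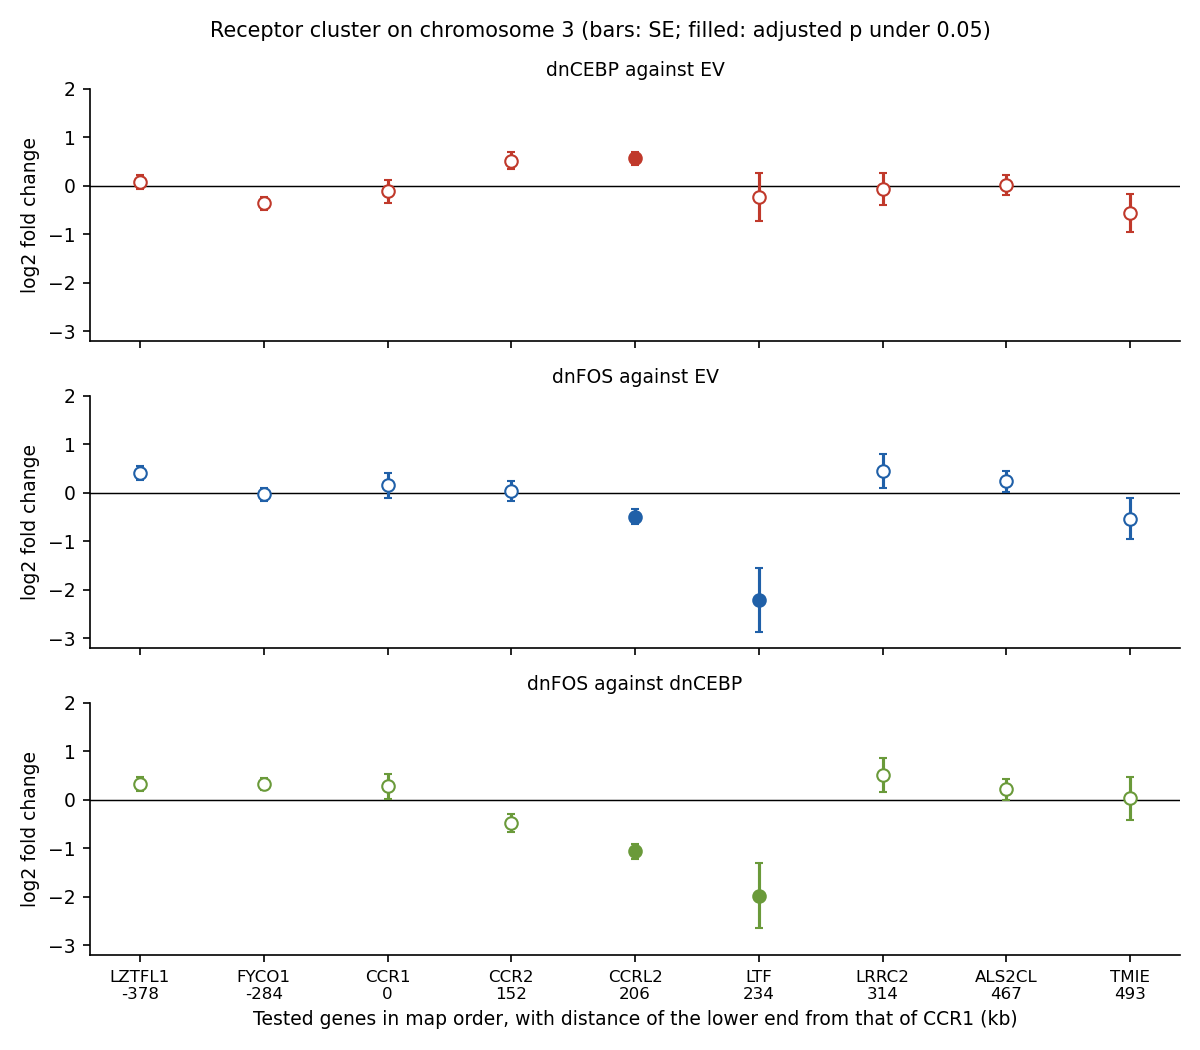
Log2 fold change with SE (y axis) of 9 tested genes around the chromosome 3 receptor cluster, in map order along the x axis with the distance from CCR1 in kb, in each comparison. Filled points had an edgeR adjusted p under 0.05: CCRL2 in all 3 panels and LTF in both panels with dnFOS.

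The genes whose profile over the 6 libraries lay nearest to CXCR4 and CCRL2 were taken from 8322 others with a mean of at least 10 CPM, by the root mean square difference of centred log2 CPM. For CXCR4 they were AARS1 at 0.076, TNFRSF10B at 0.084 and LONP1 at 0.111 on the log2 scale. AARS1, an alanyl-tRNA synthetase, stood at 156 ± 6.58 CPM with the empty vector, 115 ± 9.17 with dnCEBP and 90.1 ± 5.11 with dnFOS. For CCRL2 they included SAMSN1 at 0.100 and TMSB10 at 0.105. SAMSN1, an adaptor protein of blood cells, stood at 47.6 ± 5.16, 75.4 ± 6.11 and 31.5 ± 1.53 CPM in the same groups (SD, n = 2).

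The ligands of these receptors were read from a list of 26 genes, of which 13 were tested and 10 had no count in any library. In dnFOS against EV 7 of the 13 were called, all lower, where 15.0% of all genes were called and 7.76% were called lower, with a list median of -0.88 on the log2 scale beside 0.00 for all genes tested. In dnFOS against dnCEBP 8 were called, all lower, where 14.7% of all genes were called and 7.84% were called lower, with a median of -0.88 beside 0.02. In dnCEBP against EV, where 1.07% of all genes were called, 0 of the 13 were called in the edgeR fit reported here, with 3 at an unadjusted p under 0.05, and the median was 0.17, with values from -0.37 to 1.05. DESeq2 and limma-voom each called 1, ANXA1, higher at 0.32 and 0.31 (adjusted p = 0.0247 and 0.0379). Other edgeR fits called ANXA1 with no low-count filter, with only the 4 libraries compared, with the replicate block and without either dnFOS library (edgeR adjusted p from 0.00765 to 0.0388), and MIF, lower, with the replicate block (-0.40) and without dnCEBP replicate 1 (-0.72). CXCL12, the ligand of CXCR4, had at most 0.251 CPM, and chemerin (RARRES2), the ligand of CCRL2 and CMKLR1, had no count.

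The CXCR2 ligand CXCL8 had 249 and 261 CPM with the empty vector, 291 and 282 with dnCEBP and 46.5 and 51.9 with dnFOS. Its log2 fold change in dnFOS was -2.38 ± 0.09 (edgeR adjusted p = 1.09e-17), while CXCR2 itself was not called. CXCL2, another CXCR2 ligand, fell at -0.88 ± 0.21 in dnFOS against EV (edgeR adjusted p = 0.00391), which was not called without dnFOS replicate 1 (-0.68). Against dnCEBP it was -0.85 ± 0.21 (edgeR adjusted p = 0.00510), not called without dnCEBP replicate 2 (-0.71) or dnFOS replicate 1 (-0.65). CCL2, the main ligand of CCR2, had 16.8 and 14.3 CPM with the empty vector, 15.6 and 16.2 with dnCEBP and 7.81 and 7.63 with dnFOS, at -1.01 ± 0.17 in dnFOS against EV (edgeR adjusted p = 0.000126). For CCR1, CCL3 fell in dnFOS against EV at -2.0 ± 0.28 (edgeR adjusted p = 1.06e-05), though it has a near-identical copy in the genome, and how reads that fit both were counted is not given in the sources used here. CCL5 was called only in dnFOS against dnCEBP among these comparisons, at -0.94 ± 0.27 (edgeR adjusted p = 0.0184), and not by DESeq2 (adjusted p = 0.0833) or without dnCEBP replicate 1 (-0.85) or dnFOS replicate 1 (-0.67). In that comparison CCL23 was not called, at -0.88 ± 0.32 (edgeR adjusted p = 0.0615). CCL23 was called with only the 4 libraries compared and with the replicate block (edgeR adjusted p = 0.0379 and 0.0426). It was also called without EV replicate 1 (-0.88) or dnFOS replicate 1 (-1.33).

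In dnFOS against EV, called ligands shared with the scavenging and formyl peptide receptors also fell. Of the 13 tested ligands, 11 were lower there and 2 higher, PPBP (0.73 ± 0.38) and C5 (0.45 ± 0.27), neither of them called. ADM, which encodes adrenomedullin, a ligand of ACKR3, had 49.0 and 44.8 CPM with the empty vector, 42.4 and 43.0 with dnCEBP and 15.2 and 14.5 with dnFOS (-1.65 ± 0.12 in dnFOS against EV; edgeR adjusted p = 8.75e-11). ANXA1, whose annexin product acts on formyl peptide receptors, had 220 and 201 CPM with the empty vector, 251 and 272 with dnCEBP and 146 and 140 with dnFOS. It fell at -0.56 ± 0.09 in dnFOS against EV (edgeR adjusted p = 4.72e-05) and differed by -0.87 ± 0.09 between dnFOS and dnCEBP (edgeR adjusted p = 1.64e-08). MIF, a cytokine that binds CXCR4 and CXCR2, had 51.9 and 41.7 CPM in EV and 21.7 and 16.6 in dnFOS, at -1.27 ± 0.21 (edgeR adjusted p = 0.00266). It was not called without dnFOS replicate 2 (-1.11, edgeR adjusted p = 0.121), and in dnFOS against dnCEBP, at -0.90 ± 0.21, not without either dnFOS library (-1.12 and -0.74) or by limma-voom (adjusted p = 0.0606).

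Of 29 other chemoattractant receptors, 15 were tested and 7 had no count in any library. In dnFOS against EV 2 of the 15 were called, both lower, or 13.3% beside 15.0% of all genes, and in the other comparisons 0 were called by DESeq2, limma-voom or the edgeR fit reported here, with 3 at an unadjusted p under 0.05 in dnCEBP against EV and 2 in dnFOS against dnCEBP. In dnFOS against dnCEBP, PTGDR2, a prostaglandin receptor, was called lower with no low-count filter, with only the 4 libraries compared, with the replicate block and without dnFOS replicate 2 (edgeR adjusted p from 0.0253 to 0.0394), and S1PR4 without dnCEBP replicate 2 (edgeR adjusted p = 0.0479). S1PR4 was called lower in dnFOS against EV in 5 other edgeR fits (edgeR adjusted p from 0.0165 to 0.0456). Medians of the 15 were 0.04 in dnCEBP against EV, -0.27 in dnFOS against EV and -0.35 in dnFOS against dnCEBP. GPR183, a receptor for oxysterols, had 11.1 and 10.3 CPM with the empty vector, 9.65 and 8.97 with dnCEBP and 7.87 and 6.37 with dnFOS. Its log2 fold change in dnFOS was -0.57 ± 0.19 (edgeR adjusted p = 0.0386), which was not called by DESeq2 (adjusted p = 0.0984), limma-voom (0.0625) or on library totals alone (0.0907), nor without either EV library (-0.52 and -0.63) or dnFOS replicate 2 (-0.44). S1PR1, a sphingosine phosphate receptor that lets cells leave tissue for blood, had 25 and 17 counts with the empty vector, 18 and 15 with dnCEBP and 2 and 2 with dnFOS. Its summed rate in EV was 5.89 times that in dnFOS, with an exact 95% counting interval from 2.14 to 22.6, which covers counting error only. The log2 fold change in dnFOS against EV was -2.5 ± 0.81 (edgeR adjusted p = 0.0347). DESeq2 gave S1PR1 no adjusted p, so it was not called there (-2.54). S1PR1 was not called by limma-voom (adjusted p = 0.0748), nor without EV replicate 1 (-2.27), dnFOS replicate 1 (-2.21) or dnFOS replicate 2 (-2.76).

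Of 28 genes that carry or end the receptors' signal, 27 were tested. In dnCEBP against EV 0 were called by DESeq2 or the edgeR fit reported here, with 6 at an unadjusted p under 0.05 and values from -0.27 to 0.44 on the log2 scale, while limma-voom called 1, GNAI1, higher at 0.44 (adjusted p = 0.0454). PIK3CG was called, also higher, without dnCEBP replicate 1 (0.58). In dnFOS against EV 6 were called, 5 lower and 1 higher, and in dnFOS against dnCEBP 6 were called, 4 lower and 2 higher, or 22.2% each beside 15.0% and 14.7% of all genes. DESeq2 and limma-voom each called 7 in dnFOS against EV, both including CDC42, higher (adjusted p = 0.0371 and 0.0453). Calls made only in other fits of dnFOS against EV were higher for CDC42, ARRB1, GRK3 and PREX1. They were lower for GNAI1, GNAI2, GNAI3, PLCB3, DOCK2, ELMO1 and GRK6. In dnFOS against dnCEBP such calls were higher for ARRB1 and lower for GNAI3 and ELMO1. The medians of the 27 were 0.05, -0.17 and -0.16 in the 3 comparisons.

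Among the genes that switch receptors off, GRK2, a receptor kinase, had 254 and 238 CPM with the empty vector, 234 and 209 with dnCEBP and 190 and 179 with dnFOS (-0.42 ± 0.09 in dnFOS against EV; edgeR adjusted p = 0.00139). ARRB2, an arrestin, fell at -0.42 ± 0.11 (edgeR adjusted p = 0.00888), which was not called without EV replicate 1 (-0.41). Among those that carry the signal, the G protein subunits GNA15 and GNB2 fell in dnFOS against EV at -0.44 ± 0.09 and -0.52 ± 0.14 (edgeR adjusted p = 0.000828 and 0.00900), and GNB4 rose at 0.46 ± 0.09 (edgeR adjusted p = 0.000579). GNB2 was not called without EV replicate 1 (-0.50) or dnFOS replicate 2 (-0.44). With a trend on GC content and length removed, GNA15 (-0.19), GNB2 (-0.24) and ARRB2 (-0.26) were not called in dnFOS against EV. RAC2, the small GTPase of blood cells, fell at -0.39 ± 0.09 (edgeR adjusted p = 0.00232), and was not called without EV replicate 1 (-0.34).

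In dnFOS against dnCEBP the largest of these differences was in GNAI1, an inhibitory G protein subunit, with 22.5 and 21.5 CPM with the empty vector, 31.0 and 28.7 with dnCEBP and 17.4 and 18.2 with dnFOS. It differed by -0.75 ± 0.13 (edgeR adjusted p = 0.000150) and was called without each of the 6 libraries, while in the edgeR fit reported here it was not called against EV. It was called in dnCEBP against EV with only the 4 libraries compared, with the replicate block and without either dnFOS library (edgeR adjusted p from 0.0186 to 0.0474), and in dnFOS against EV after correction for GC content and length (-0.56, edgeR adjusted p = 0.00246). RAC2 was also lower in dnFOS than in dnCEBP (-0.44 ± 0.09), as were GNA15 (-0.31 ± 0.09) and GRK2 (-0.27 ± 0.09), and GNB4 and RAC1 were both higher, at 0.33 (edgeR adjusted p = 0.0106 and 0.0208). The calls of GNA15, GRK2, GNB4 and RAC1 were each lost without dnCEBP replicate 1 (-0.21, -0.18, 0.26 and 0.30) and without dnFOS replicate 2 (-0.26, -0.22, 0.28 and 0.23). GRK2 was also not called without EV replicate 1 (-0.27), and RAC1 not without dnCEBP replicate 2 (0.36). On library totals alone GNA15 (-0.18) and GRK2 (-0.15) were not called, nor was GNA15 (-0.18) after correction for GC content and length.

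**Figure D5:**
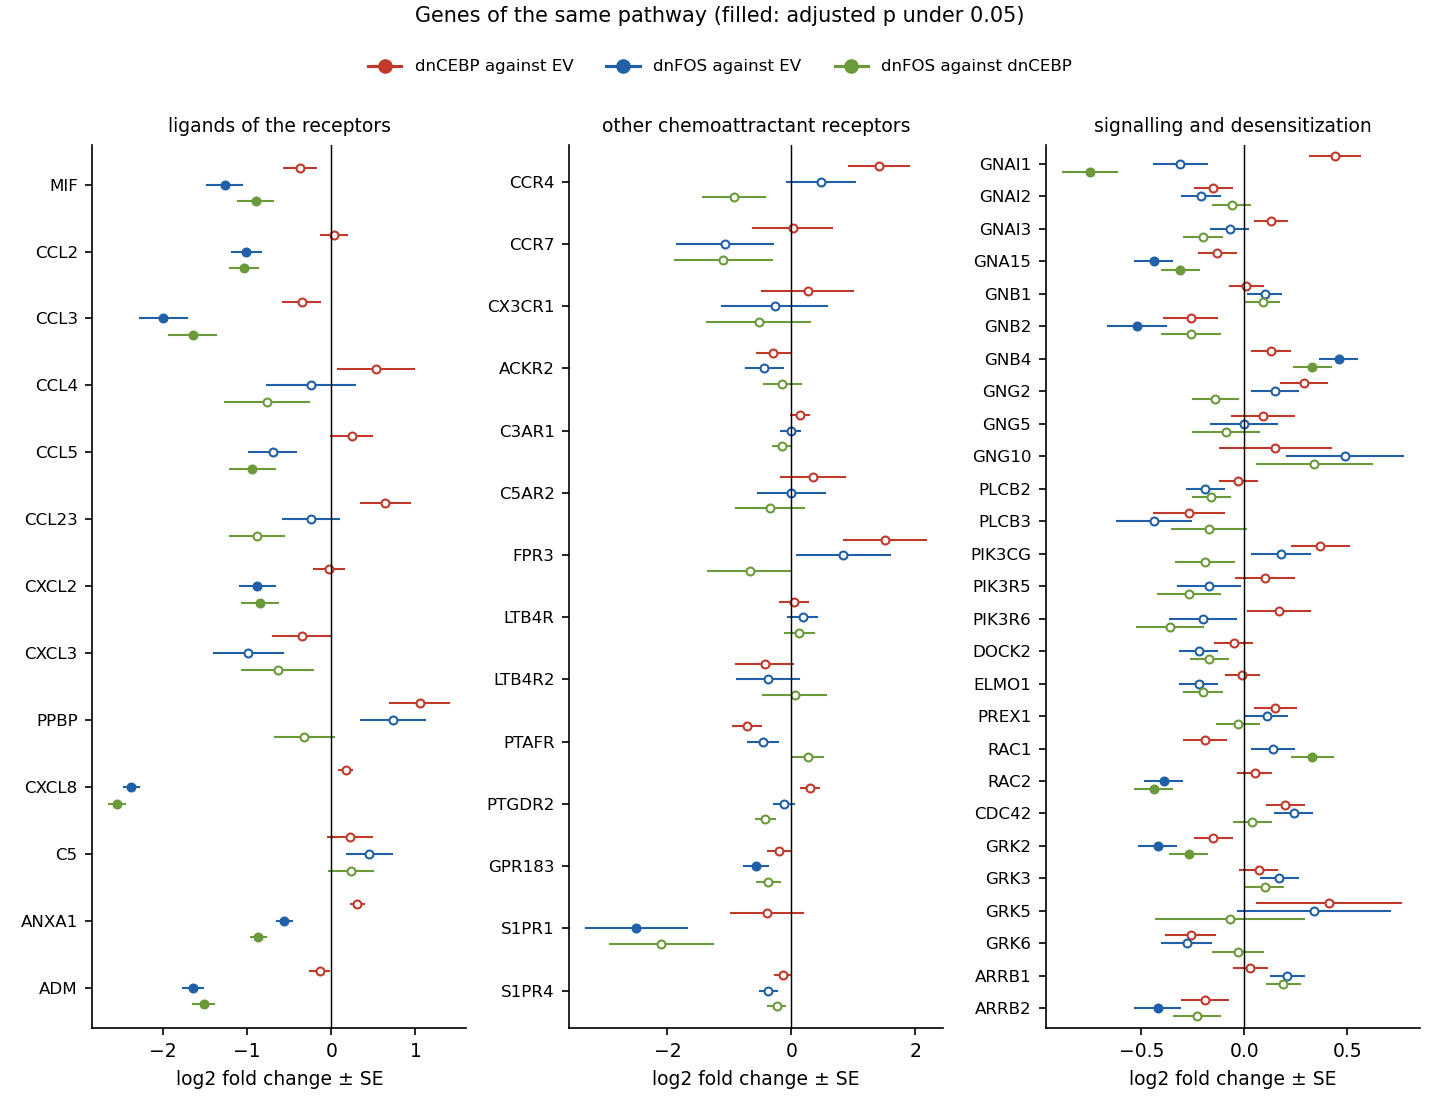
Log2 fold change with SE (x axis) of the tested ligands (left), other chemoattractant receptors (middle, 14 of the 15 tested) and signalling and desensitization genes (right), in dnCEBP against EV (red), dnFOS against EV (blue) and dnFOS against dnCEBP (green), each panel with its own x scale. Filled points had an edgeR adjusted p under 0.05; none of the red points is filled, and all filled points of the ligands lie below 0.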

How the data were processed

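Total RNA was sequenced in 6 libraries, 2 per group, grouped by sample title. The deposited tables hold whole-number counts for each gene, without normalization, which the authors made with Trimmomatic, HISAT2 and featureCounts of Subread on hg38, according to the submitters' processing notes. Versions, the annotation release and the use of strand are not given in the sources used here. Gene IDs were matched to GENCODE release 29 (58394 of 60612), whose coordinates are printed.

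Counts were tested with edgeR 4.0.16 in R 4.3.3 (filterByExpr with a minimum count of 10, TMM scaling, robust quasi-likelihood fit with a mean per group, 3 residual degrees of freedom, two-sided, adjusted by Benjamini-Hochberg). The spread of each gene was drawn towards a trend over all genes tested, which brought the median total degrees of freedom to 29.5. Alternatives used DESeq2 1.42.0, limma 3.58.1 and other filters, scalings and libraries. Replicates of each group differed by more than sampling noise (chi-square per degree of freedom 7.99 to 14). The script was tested on simulated data.

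All 9 receptors, the list genes called in any comparison and the nearest profiles are named; some genes are not reported here. Receptors and lists were chosen with earlier results of these data known. Motifs, the chromosome 3 neighbourhood and LTF were chosen after values were seen.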

Additional observations from a re-analysis of the deposited data

How the results depend on the processing

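The log2 fold change of each of the 6 tested receptors was recomputed under 9 other ways of fitting and without each of the 6 libraries. Of the 267 values in all, 244 kept their direction and their side of the threshold, 10 were no longer called, 1 was newly called and 12 changed sign. In dnCEBP against EV 1 receptor, CXCR4, was called with library totals alone and 1 with DESeq2 in place of 2, and leaving out 1 library gave 0 to 2. In dnFOS against EV 1, CXCR4, was called with library totals alone and 1 with DESeq2, and leaving out 1 library gave 1 to 2. In dnFOS against dnCEBP leaving out 1 library gave 1 to 2. Changes of sign were seen only in values that were not called. ACKR3 in dnCEBP against EV was 0.011 with no low-count filter, 0.0018 with median-of-ratios size factors, 0.027 with DESeq2 and from -0.76 to 0.60 without 1 library. In dnFOS against dnCEBP it ran from -0.13 to 1.16 without 1 library and in dnFOS against EV from -0.0214 to 1.01. CCR1 ran from -0.29 to 0.0714 in dnCEBP and from -0.0124 to 0.34 in dnFOS, CXCR2 from -0.14 to 0.41 in dnFOS, and CCR2 from -0.23 to 0.23 in dnFOS, with -0.055 once a trend on GC content and length was removed. Replicate numbers are shared by the groups, and the deviations of same-numbered libraries were weakly and positively correlated (0.0174, 0.0281 and 0.0879). With the replicate number as a replicate block, calls over all genes in dnFOS against EV rose from 2309 to 3173. Those in dnFOS against dnCEBP rose from 2261 to 3016. The receptors called were 2, 2 and 1, as without the block, and the count over all genes in dnCEBP against EV went from 165 to 488. That count was 53 without EV replicate 2, 33 without dnCEBP replicate 2 and 315 without dnFOS replicate 2. Over all genes, dnFOS against EV gave 2309 calls, 974 without dnFOS replicate 2 and 1059 without EV replicate 1, and dnFOS against dnCEBP 2261 calls, 1182 without dnFOS replicate 2 and 1350 without dnCEBP replicate 1, so the shares of all genes called fall with them. Library totals alone shifted the median of all genes by 0.10 in dnFOS against EV and 0.14 in dnFOS against dnCEBP. Low counts limit FPR1, CMKLR1, C5AR1 and ACKR3 most. Fits without a library assume that the lone sample of its group varies like the others, and the causes of these differences were not tested.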
